A study of Mus musculus with 4 samples.

Results

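The H19/Igf2 and Kcnq1ot1/Cdkn1c domains lie next to each other on distal chromosome 7 and hold a cluster of imprinted genes. From the 24594 genes of the deposited count table, 10 genes of these domains and of their edges were taken by name: H19, Igf2, Cd81, Tssc4, Kcnq1, Kcnq1ot1, Cdkn1c, Slc22a18, Phlda2 and Nap1l4. They were picked with their difference between the genotypes already known, so their values are given here as a description, without a test. Poly(A) RNA of mouse embryonic stem (ES) cells was sequenced in 4 libraries to ask how the transcriptome responds to loss of SNF2L, which is 1 of the ATPases of ISWI chromatin remodeling complexes. Wild-type (WT) cells gave 2 libraries, and cells with the genotype snf2l knock-out (Snf2lΔ) gave the other 2. The gene is listed as Smarca1. Both genotypes are of the same 129S6/SvEvTac line and received no treatment, and all libraries are described as 1 batch. According to the study's methods the cells grew in serum with LIF, and a mutant line is a clone obtained by Cas9 editing. The labels give no further clone, so the effect of the deletion and the properties of this clone cannot be told apart. The labels do not say that the libraries of a genotype came from separate cultures, so p-values measure only the spread between these libraries.

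The libraries held between 13771642 and 15608803 counts. Smarca1, the targeted gene, had 620 and 626 counts in WT and 37 and 31 in Snf2lΔ, a log2 fold change of -4.30 (SE 0.159, adjusted p = 2.65e-10, quasi-likelihood test of edgeR, Benjamini-Hochberg adjusted). Smarca5 on chromosome 8, which codes for the other ISWI ATPase, SNF2H, was also lower. It had 6775 and 7020 counts in WT and 4816 and 4745 in Snf2lΔ (log2 fold change -0.63, SE 0.0848, adjusted p = 2.92e-04, same test). Only chromosomes 7, 8 and Y were summarized one by one. Relative to all tested genes, the median log2 fold change was -0.51 over 754 genes of chromosome 8 and -4.57 over 6 genes of chromosome Y. Over 1119 tested genes of chromosome 7, the 10 cluster genes left out, it was 0.06, and it was 0.07 over the 76 genes of the 5 Mb window around the cluster. What part, if any, these chromosome-wide differences have in the values below was not tested.

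Imprinted genes are transcribed mainly from the copy inherited from 1 parent, under the direction of imprinting control regions that are DNA-methylated on 1 parental copy. In the H19/Igf2 domain, the insulator protein CTCF binds the unmethylated maternal control region, which separates Igf2 from enhancers shared with H19, so that H19 RNA is made from the maternal copy and Igf2 from the methylated paternal copy. In the neighbouring domain, the long non-coding RNA Kcnq1ot1 is transcribed from the unmethylated paternal control region and silences genes such as Cdkn1c, Phlda2 and Slc22a18 in cis, leaving the maternal copies active. The cells have a single inbred background and the deposited table has no allelic counts, so the parental origin of the RNA was not analysed here. In bulk RNA, fewer cells expressing a gene and less RNA per cell cannot be told apart.

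The cluster spans 974 kb, with 4 genes on the plus strand and 6 on the minus strand (GRCm38, the assembly that mm10 represents). H19 (Entrez 14955) covers chr7:142575530-142578146 on the minus strand, and Igf2 (Entrez 16002) covers chr7:142650768-142666816, 72.6 kb away on the same strand. Both are host genes of microRNAs. Their mature sequences, from RefSeq on GRCm38.p6, are given because these microRNAs are separate products encoded within the host genes. Capitals mark the seed, bases 2 to 8.
mmu-miR-675-5p: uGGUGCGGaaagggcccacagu
mmu-miR-675-3p: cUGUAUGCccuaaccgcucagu
mmu-miR-483-5p: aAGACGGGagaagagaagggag
mmu-miR-483-3p: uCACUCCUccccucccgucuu
The first pair is encoded in an exon of H19, and the second pair in an intron of Igf2. The 4 seeds differ from each other, and 0 other mouse microRNAs in the table share any of them. Poly(A) libraries do not measure mature microRNAs. The table row of the Mir675 hairpin, which lies within an H19 exon, had 9 and 5 counts in WT and 0 and 0 in Snf2lΔ, which are reads over 84 bases of the H19 exon. The Mir483 row had 0 and 0 counts in WT and 1 and 0 in Snf2lΔ, all at or under the floor of 3 counts taken as the limit that a count of 0 allows.

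H19, a long non-coding RNA abundant in the embryo and placenta, had 992 and 1130 counts in WT and 111 and 96 in Snf2lΔ. Scaled to counts per 1000000 (CPM), its level was 72.9 and 73.7 in WT and 7.07 and 6.25 in Snf2lΔ. Both Snf2lΔ libraries lay far below both WT libraries, while libraries of the same genotype were close. The mean level was 73.3 ± 0.602 CPM in WT and 6.66 ± 0.585 in Snf2lΔ (SD, n = 2), so Snf2lΔ held 9.1% of the WT level, or 11-fold less. The log2 fold change was -3.46 (SE 0.122), and the 4 pairings of a WT with a Snf2lΔ library gave -3.53 to -3.34. Among 13840 tested genes, H19 had the 9th largest fall by this estimate.

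Igf2, the insulin-like growth factor that promotes fetal growth, differed in the other direction. It had 151 and 182 counts in WT and 693 and 578 in Snf2lΔ, corresponding to 11.1 and 11.9 CPM in WT and 44.2 and 37.6 in Snf2lΔ. Here both Snf2lΔ libraries lay above both WT libraries, and they differed more from each other than the WT libraries did. Mean levels were 11.5 ± 0.553 CPM in WT and 40.9 ± 4.64 in Snf2lΔ (SD, n = 2), 3.56-fold higher in the latter, with a log2 fold change of 1.83 (SE 0.127) and a range of 1.65 to 1.98 over the pairings. By this estimate it had the 20th largest rise. Igf2 shares 3596 exonic bases with Gm49394, a protein-coding gene annotated on the same strand, so that reads of these genes cannot be told apart there. It also shares 98 exonic bases with its antisense gene Igf2os, and neither labels nor methods state whether strand was used in counting.

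**Figure D1:**
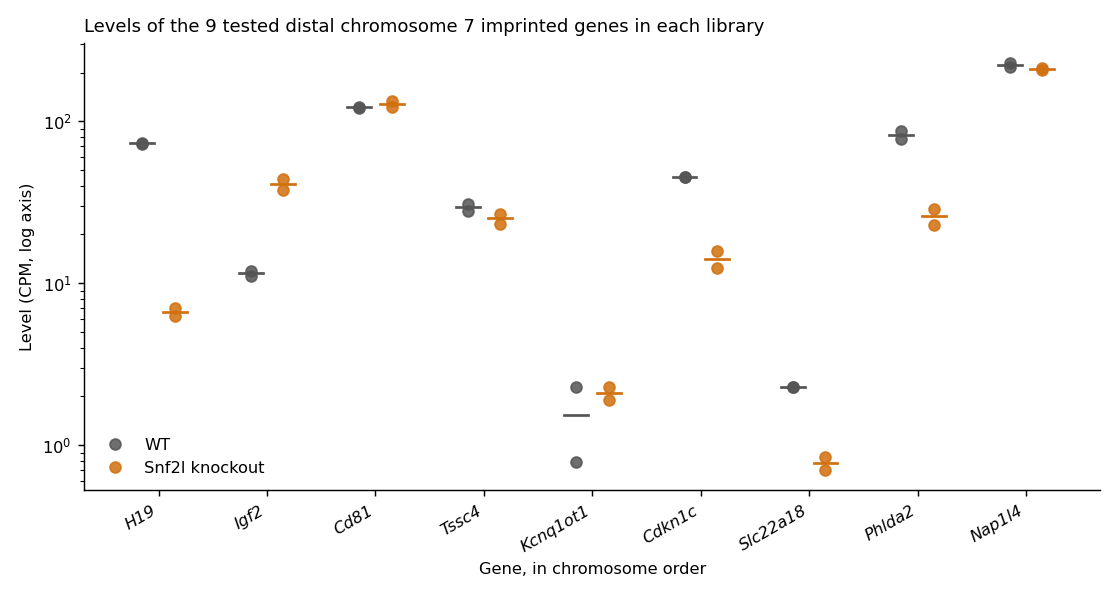
Level of the 9 tested cluster genes in each library, in CPM on a log axis, in chromosome order. Points are the 2 WT (grey) and 2 Snf2lΔ (orange, written Snf2l knockout in the picture) libraries and bars are group means; H19, Cdkn1c, Slc22a18 and Phlda2 lie lower in Snf2lΔ, Igf2 lies higher, and the WT points of Kcnq1ot1 stand wide apart, at 2.28 and 0.783 CPM.

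Because H19 and Igf2 were counted in the same libraries, their ratio does not depend on library scaling. WT libraries had 6.57 and 6.21 H19 counts for each Igf2 count, and Snf2lΔ libraries had 0.16 and 0.166. Expressed per kb of the gene lengths in the deposited table (2460 bp for H19 and 6865 bp for Igf2), the ratio was 18.3 and 17.3 in WT and 0.447 and 0.463 in Snf2lΔ. The more abundant RNA of the pair was thus H19 in both WT libraries and Igf2 in both Snf2lΔ libraries. On this scale the level of H19 was 29.8 ± 0.245 CPM per kb in WT and 2.71 ± 0.238 in Snf2lΔ, against 1.67 ± 0.0805 and 5.96 ± 0.676 for Igf2 (SD, n = 2). The summed level of the pair was 84 and 85.6 CPM in WT and 51.2 and 43.9 in Snf2lΔ, so the higher Igf2 level did not make up for the lower H19 level in counts.

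**Figure D2:**
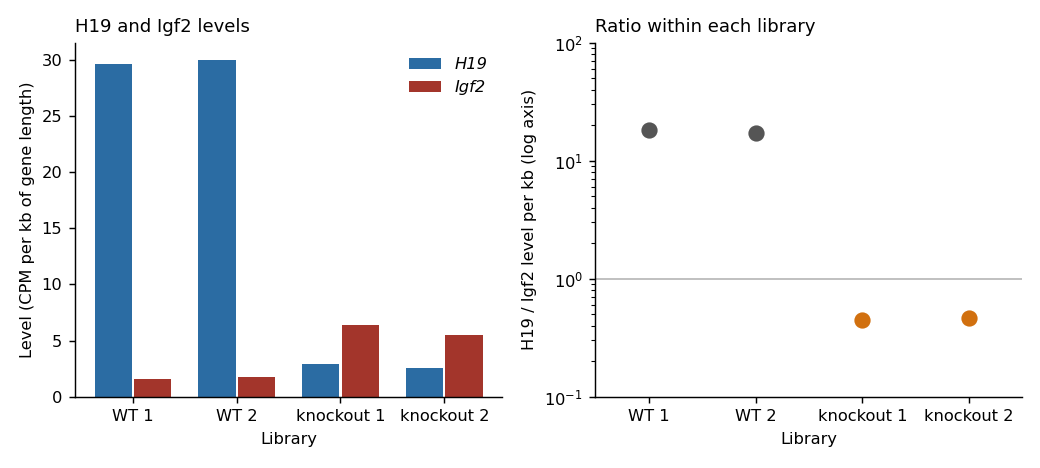
Left, level of H19 (blue) and Igf2 (red) in each library in CPM per kb of gene length; right, H19 level divided by Igf2 level within each library on a log axis, with grey points for WT, orange points for Snf2lΔ and a line at equal levels. The ratio lay at 18.3 and 17.3 in WT and at 0.447 and 0.463 in Snf2lΔ.

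In the neighbouring domain, 3 adjacent genes that the paternal copy of Kcnq1ot1 silences were all lower in Snf2lΔ. Cdkn1c (Entrez 12577, chr7:143458339-143461059, minus strand), which codes for the cyclin-dependent kinase inhibitor p57, had 619 and 689 counts in WT and 195 and 241 in Snf2lΔ. Its levels of 45.5 and 45 CPM in WT and 12.4 and 15.7 in Snf2lΔ did not overlap, with means of 45.2 ± 0.368 and 14.1 ± 2.3 (SD, n = 2). This left 31.1% of the WT level (log2 fold change -1.69, SE 0.125). Cdkn1c shares 625 exonic bases with the antisense gene Gm44732, so that reads from the opposite strand may be part of its counts.

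Phlda2 (Entrez 22113, chr7:143501545-143503145, minus strand) codes for a pleckstrin homology-like protein that restrains placental growth. It had 1061 and 1342 counts in WT and 359 and 443 in Snf2lΔ, or 77.9 and 87.6 CPM against 22.9 and 28.8. Its mean level of 82.7 ± 6.8 CPM in WT and 25.9 ± 4.2 in Snf2lΔ (SD, n = 2) left 31.2% of the WT level, with a log2 fold change of -1.68 (SE 0.12). Per kb it was the most abundant of the 10 genes in WT, at 109 ± 8.98 CPM per kb, and 97.2% of tested genes lay below it.

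Slc22a18 (Entrez 18400, chr7:143473726-143499334, plus strand), which codes for an organic cation transporter-like protein, lies between Cdkn1c and Phlda2. Its counts were low: 31 and 35 in WT, with 95% exact Poisson intervals of 21.1 to 44 and 24.4 to 48.7, and 11 and 13 in Snf2lΔ, with intervals of 5.49 to 19.7 and 6.92 to 22.2. The highest Snf2lΔ bound lies above the lowest WT bound, and the intervals cover counting error only. Levels of 2.28 and 2.28 CPM in WT and 0.701 and 0.846 in Snf2lΔ left 34.1% of the WT level, with a log2 fold change of -1.55 (SE 0.317). The 3 genes lie within 44.8 kb, and the estimates of the share of the WT level that remained ranged from 31.1 to 34.1%. Over the pairings of a WT with a Snf2lΔ library, log2 fold changes were -1.86 to -1.51 for Cdkn1c and -1.93 to -1.43 for Phlda2. With this spread and the few Slc22a18 counts, these values cannot show that the 3 shares were the same. Within a library, the ratio of Phlda2 to Cdkn1c counts was 1.71 and 1.95 in WT and 1.84 and 1.84 in Snf2lΔ, values that overlap.

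Promoters of the genes that differed were available from RefSeq (GRCm38.p6) for Igf2, Slc22a18 and Phlda2, and that of Kcnq1ot1 is set beside them because it starts in the control region of the domain. Each sequence runs from 250 bases before to 50 bases after the annotated start, capitals mark CG dinucleotides, the targets of DNA methylation, and the start of Igf2 shown is the third of 4 and has the most CG.
Phlda2, chr7:143502475-143502774, minus strand: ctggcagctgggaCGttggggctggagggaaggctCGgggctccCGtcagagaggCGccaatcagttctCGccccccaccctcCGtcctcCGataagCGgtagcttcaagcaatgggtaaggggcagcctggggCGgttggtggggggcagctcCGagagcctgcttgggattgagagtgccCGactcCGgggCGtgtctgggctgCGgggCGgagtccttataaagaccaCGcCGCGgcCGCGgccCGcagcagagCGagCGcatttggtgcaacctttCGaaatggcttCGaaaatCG
Slc22a18, chr7:143473539-143473838, plus strand: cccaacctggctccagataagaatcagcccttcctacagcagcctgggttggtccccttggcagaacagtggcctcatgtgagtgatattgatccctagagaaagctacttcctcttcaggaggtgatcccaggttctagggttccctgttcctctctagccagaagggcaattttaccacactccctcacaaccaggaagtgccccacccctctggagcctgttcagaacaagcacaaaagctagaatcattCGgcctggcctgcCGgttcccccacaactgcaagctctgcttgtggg
Igf2, chr7:142658755-142659054, minus strand: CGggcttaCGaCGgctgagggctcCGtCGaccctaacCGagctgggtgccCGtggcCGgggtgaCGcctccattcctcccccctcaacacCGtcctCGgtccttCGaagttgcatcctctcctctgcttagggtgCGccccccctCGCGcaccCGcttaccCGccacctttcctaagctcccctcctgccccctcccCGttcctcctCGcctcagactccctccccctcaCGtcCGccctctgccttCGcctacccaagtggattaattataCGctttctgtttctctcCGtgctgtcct
Kcnq1ot1, chr7:143296498-143296797, minus strand: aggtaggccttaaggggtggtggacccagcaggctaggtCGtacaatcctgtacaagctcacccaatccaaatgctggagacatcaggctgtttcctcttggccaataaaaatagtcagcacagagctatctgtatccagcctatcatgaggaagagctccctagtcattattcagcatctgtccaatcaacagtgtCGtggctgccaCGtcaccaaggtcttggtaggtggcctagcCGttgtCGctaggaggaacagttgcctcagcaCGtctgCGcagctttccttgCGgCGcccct
The Phlda2 promoter holds 26 CG and the Slc22a18 promoter 2. Over 32851 mouse promoters of 300 bases the median is 7, with quartiles of 3 and 20. These neighbouring genes, both lower in Snf2lΔ, thus differ widely in this respect. The Igf2 promoter shown holds 24 CG, the other Igf2 starts hold 2, 14 and 7, and the Kcnq1ot1 promoter holds 9. In all 9 promoters of 6 cluster genes, both strands were searched for the hexamer TGCCGC read by ZFP57 in its methylated form, for the GC box GGGCGG and for the TATA box TATAAA. Phlda2 had 2 GC boxes and 1 TATA box, and Slc22a18 and Kcnq1ot1 had no match to these letters. The Igf2 start shown had 1 GC box, the second Igf2 start had 1 ZFP57 hexamer and the fourth had 2 GC boxes. Cd81 and Tssc4, which were not called, hold 23 CG each. Cd81 had 3 GC boxes, the most of all, and 1 TATA box, and Tssc4 had no match. Among the 6 genes with a promoter, neither many CG nor GC or TATA boxes were thus particular to those that differed, and the only ZFP57 hexamer was in Igf2. H19 and Cdkn1c, which also differed, had no promoter available. Over all promoters, 11.6% hold the ZFP57 hexamer, 35.7% the GC box, 13.6% the TATA box and 1.28% the CTCF core.

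Kcnq1ot1 itself was detected with few reads. Its annotated span, chr7:143213111-143296547 (Entrez 63830, minus strand), lies within Kcnq1 on the opposite strand. Counts were 31 and 12 in WT and 36 and 29 in Snf2lΔ, or 2.28 and 0.783 CPM against 2.29 and 1.89. The WT libraries differed from each other more than the genotypes did, and the genotypes overlapped. The log2 fold change was 0.49 (SE 0.378), 1.41 without WT library 1 and -0.12 without WT library 2, so its direction rested on single libraries. The exact Poisson intervals of the WT counts, 21.1 to 44 and 6.2 to 21, do not overlap, so the WT pair differed by more than counting error. It had an adjusted p-value over 0.05 with all 4 libraries and under 0.05 without WT library 1, and no direction is read from it. Spread over 93092 bases, it was the thinnest covered of these genes apart from Kcnq1, at 0.0164 CPM per kb in WT, and almost all tested genes lay above it.

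Kcnq1 (Entrez 16535, chr7:143106877-143427050, plus strand), a potassium channel gene, had 1 and 0 counts in WT and 0 and 0 in Snf2lΔ. These values are under the floor of 3 counts, so no fold change is given, and it was the only cluster gene that did not pass the filter on low counts.

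The genes at the edges of the Kcnq1ot1/Cdkn1c domain, for which imprinting is known mainly from placenta, were abundant and close between the genotypes. Nap1l4 (Entrez 17955, chr7:143513579-143549882, minus strand), a histone chaperone gene, had 216 and 229 CPM in WT and 208 and 214 in Snf2lΔ. The groups did not overlap, by a margin smaller than the distance within the WT pair, and the log2 fold change was -0.08 (SE 0.0865). The 3′ end of Nap1l4 lies 10.4 kb from Phlda2, and it was set beside it. The ratio of Phlda2 to Nap1l4 counts was 0.361 and 0.382 in WT and 0.11 and 0.135 in Snf2lΔ. For Cdkn1c the corresponding ratio was 0.211 and 0.196 in WT and 0.0597 and 0.0734 in Snf2lΔ.

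Cd81 (Entrez 12520, chr7:143052750-143067930, plus strand), which codes for a tetraspanin of the cell surface, had 121 and 123 CPM in WT and 122 and 134 in Snf2lΔ. The genotypes overlapped and the log2 fold change was 0.07 (SE 0.0913). Tssc4 (Entrez 56844, chr7:143068416-143071093, plus strand), whose product takes part in assembly of the spliceosome, starts 0.486 kb beyond Cd81. It had 27.8 and 31 CPM in WT and 23.3 and 26.9 in Snf2lΔ, with a log2 fold change of -0.23 (SE 0.119). Here the groups did not overlap but the gap between them was smaller than the distance within either pair. Tssc4 shares 220 exonic bases with Trpm5 on the opposite strand, and Cd81 shares 104 with R74862.

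Together, 9 of the 10 genes passed the filter. A differentially expressed gene (DEG) was defined by an adjusted p-value under 0.01 and a change over 2-fold. Of the 9 genes, 5 met this definition, 4 lower and 1 higher in Snf2lΔ. Over all 13840 tested genes 0.990% did so. The same 5 genes had an adjusted p-value under 0.05, as had 9.21% of all tested genes, and levels of the genotypes did not overlap in 7 of the 9, as in 50.5% of all tested genes. The genes were chosen on this contrast, so nothing is read from these counts. The estimates for H19, Igf2, Cdkn1c and Phlda2 met the definition under all 14 alternative settings, and Slc22a18 under 9. It missed the definition with DESeq2, with the loosest filter on counts and without Snf2lΔ library 1, WT library 1 or WT library 2, at log2 fold changes of -1.42 to -1.56. Summed over all 10 genes, the cluster gave 577 and 605 CPM in WT and 444 and 466 in Snf2lΔ.

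To ask whether the difference extended beyond the chosen genes, all other genes within 1 Mb of the cluster were taken by position. The table holds 57 such genes, of which 22 were tested, and 2 had an adjusted p-value under 0.05 (quasi-likelihood test of edgeR, Benjamini-Hochberg adjusted), both higher in Snf2lΔ. This is 9.09%, close to the 9.21% of all tested genes, and 6 had an unadjusted p-value under 0.05. The median log2 fold change of the 22 genes was 0.06, with a range of -1.09 to 1.87. With library number added to the model as a block, 6 of the 22 were called, and only 3 of these were higher. The direction shared by the 2 calls thus did not hold in every setting. Cars, the cysteinyl-tRNA synthetase gene, rose from 3208 and 3599 counts to 4444 and 4651 (log2 fold change 0.32, SE 0.0856, adjusted p = 0.0302). Tnfrsf23, a decoy receptor gene, rose from 3 and 7 counts to 24 and 16 (log2 fold change 1.87, SE 0.471, adjusted p = 0.0203). Neither call was stable: the adjusted p of Cars was 0.101 without Snf2lΔ library 2, 0.241 without WT library 1 and 0.234 without WT library 2, and that of Tnfrsf23 was 0.103 without Snf2lΔ library 1 and 0.151 without WT library 1. The count of neighbours called was 0 without WT library 1 and 1 without WT library 2.

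Other neighbours described as imprinted showed no difference that passed this test. Ascl2, a transcription factor gene of the trophoblast, had 36 and 44 counts in WT and 47 and 46 in Snf2lΔ (log2 fold change 0.12, SE 0.225, adjusted p = 0.823). Tspan32, Trpm5, Osbpl5, Dhcr7 and Nadsyn1 had log2 fold changes of 0.31, -0.24, 0.19, -0.13 and -0.15, with adjusted p-values from 0.496 to 0.809. Mrpl23, next to H19, had 224 and 265 counts in WT and 167 and 211 in Snf2lΔ (log2 fold change -0.47, SE 0.145, adjusted p = 0.057). Igf2os, which overlaps Igf2, had 5 and 9 counts in WT and 18 and 13 in Snf2lΔ (log2 fold change 1.03, SE 0.444, adjusted p = 0.184), and its groups did not overlap. Th was not tested at 3 to 5 counts per library, and Ins2, the insulin gene beside Igf2, had 0 counts in each library.

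**Figure D3:**
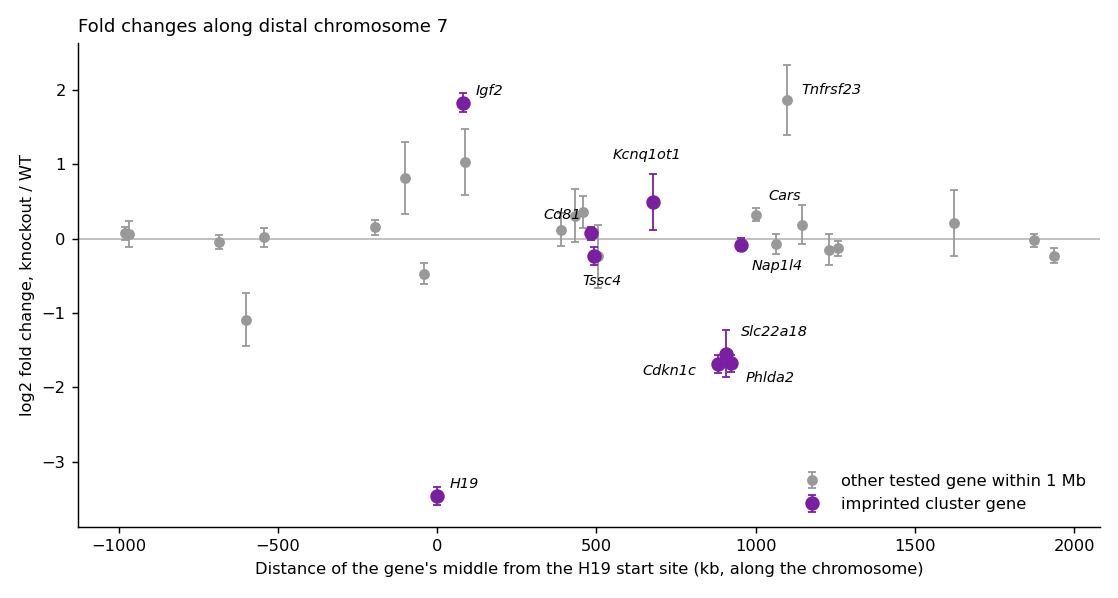
Log2 fold change (Snf2lΔ over WT) with its SE against distance along the chromosome from the H19 start site, for the 9 tested cluster genes (purple) and the 22 other tested genes within 1 Mb of the cluster (grey). Cdkn1c, Slc22a18 and Phlda2 lie side by side between -1.69 and -1.55, whereas the median of the grey genes is 0.06.

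Genes that act on the control regions were examined next, such as DNA methyltransferases, zinc-finger proteins that keep imprints, and subunits of CTCF-associated complexes. Of 33 genes tested, 2 were higher and 2 lower in Snf2lΔ at an adjusted p-value under 0.05 (12.1%, against 9.21% of all tested genes), and the median log2 fold change was -0.01. An unadjusted p-value under 0.05 was found for 8. Without Snf2lΔ library 1 the count was 7. Dppa3, which codes for a protein that protects maternal methylation in the zygote, fell from 19.1 ± 2.21 to 10.4 ± 1.61 CPM (log2 fold change -0.88, SE 0.148, adjusted p = 0.00143). Dnmt3a, a de novo DNA methyltransferase gene, rose from 306 ± 2.19 to 448 ± 5.59 CPM (log2 fold change 0.55, SE 0.0821, adjusted p = 6.81e-04). Ctcf fell from 347 ± 8.56 to 241 ± 5.53 CPM (log2 fold change -0.53, SE 0.0843, adjusted p = 0.00103), but it lies on chromosome 8, whose median was -0.51. Zfp57 was the other gene called, with a log2 fold change of 0.28 (SE 0.082, adjusted p = 0.0484). Values are means ± SD with n = 2.

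Receptors, binding proteins and downstream components of insulin-like growth factor (IGF) signalling were tested in 29 genes, of which 2 were higher and 3 lower (17.2%, against 9.21% of all tested genes) and the median was -0.01. An unadjusted p-value under 0.05 was found for 10. Without WT library 2, 3 genes were called. Igfbp2, a binding protein of IGFs, rose from 167 ± 14.2 to 264 ± 21.7 CPM (log2 fold change 0.66, SE 0.0963, adjusted p = 5.85e-04), and Pik3r1, a regulatory subunit of PI3-kinase, rose from 7.73 ± 0.599 to 12 ± 2.1 CPM (0.63, SE 0.163, adjusted p = 0.0236). Insr, the insulin receptor, which also binds IGF2, fell from 26.5 ± 4.18 to 16.7 ± 2.94 CPM (-0.67, SE 0.146, adjusted p = 0.00896). Pik3r2 and Igf2bp2 fell by less, with log2 fold changes of -0.50 (SE 0.106, adjusted p = 0.00755) and -0.33 (SE 0.0975, adjusted p = 0.0461). Insr and Pik3r2 lie on chromosome 8. Genes related to the cluster genes by sequence gave 2 higher and 0 lower of 16 tested (12.5%, against the same 9.21%), with a median of 0.11: Slc22a23 (log2 fold change 1.07, SE 0.286, adjusted p = 0.0287) and Phlda1 (0.80, SE 0.186, adjusted p = 0.0133). Without WT library 1 this count was 0, and without Snf2lΔ library 1 it was 4.

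**Figure D4:**
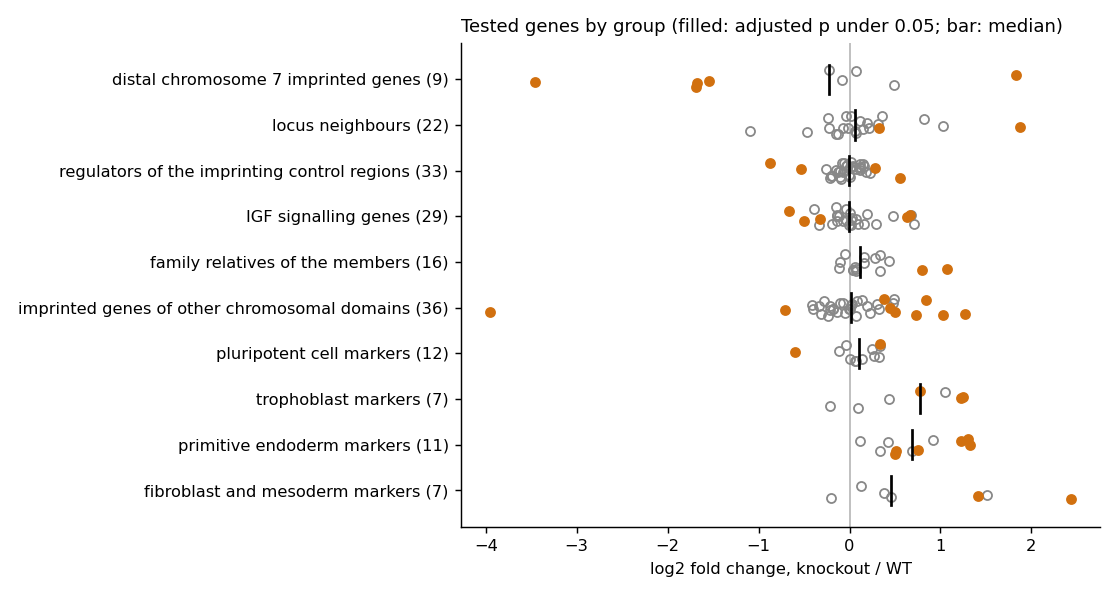
Log2 fold change (Snf2lΔ over WT) of each tested gene by group, with the number tested in brackets, filled orange points for an adjusted p-value under 0.05 and a black bar at the median. The groups of control region regulators and IGF signalling genes have medians of -0.01, while the medians of the trophoblast and primitive endoderm markers are 0.78 and 0.69.

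Some markers of cell types that can arise in ES cell cultures also differed. Over all tested genes 9.21% had an adjusted p-value under 0.05, 553 of them higher and 721 lower. Of 12 pluripotency markers, all tested, 1 was higher (Klf4) and 1 lower (Zfp42, on chromosome 8), and their summed level was 5505 and 5794 CPM in WT and 5952 and 6059 in Snf2lΔ. Of 11 primitive endoderm markers tested of 12, 6 were higher (Amn, Col4a1, Dab2, Gata4, Gata6 and Pdgfra) and 0 lower, with a sum of 417 and 410 CPM in WT and 526 and 470 in Snf2lΔ. The largest part of this sum was Sparc, at 268 ± 14.4 CPM in WT and 291 ± 17 in Snf2lΔ, which was not called. Sox17, Cubn, Lama1 and Sox7 were not called either, with log2 fold changes of 0.92, 0.69, 0.42 and 0.34. Over the 11 tested markers the log2 fold changes ranged from 0.12 to 1.33. Of these markers, 9 had an unadjusted p-value under 0.05 (quasi-likelihood test of edgeR). Gata4 and Gata6 were low, at 3.04 ± 0.0386 and 1.04 ± 0.0109 CPM in WT and 5.12 ± 0.394 and 2.45 ± 0.673 in Snf2lΔ (SD, n = 2). Among 7 trophoblast markers tested of 12, 3 were higher (Krt7, Krt18 and Hand1) and 0 lower, and the sum was 79.9 and 91.7 CPM in WT and 117 and 117 in Snf2lΔ. Most of that rise was Krt18, which went from 17.2 ± 1.64 to 40.9 ± 1.97 CPM (SD, n = 2). The means of the other tested trophoblast markers summed to 68 CPM in WT and 75.5 in Snf2lΔ. Cdx2, Eomes, Tfap2c and Gata3 had log2 fold changes of 1.05, -0.21, 0.09 and 0.43 and were not called. Counts of Cdx2 were low, at 4 and 8 in WT and 13 and 14 in Snf2lΔ. The median log2 fold change of the 7 tested trophoblast markers was 0.78. Of these, 4 had an unadjusted p-value under 0.05 (quasi-likelihood test of edgeR). Prl3d1 was at 0 in each library, and Tpbpa had at most 1 count. Of 7 fibroblast and mesoderm markers tested of 12, 2 were higher (Col1a1 and Col3a1) and 0 lower, with a sum of 18 and 15.6 CPM in WT and 29.1 and 30.9 in Snf2lΔ, and Lum was at 0. Without WT library 2 the counts were 1 for pluripotency markers, 1 for trophoblast and 2 for primitive endoderm, and without Snf2lΔ library 1 that for pluripotency markers was 4. Without WT library 1 or Snf2lΔ library 1, 4 primitive endoderm markers were called. Leaving out WT library 1 or either Snf2lΔ library, 2 trophoblast markers were called. DESeq2 called 1 pluripotency, 1 trophoblast, 2 primitive endoderm and 2 fibroblast and mesoderm markers. These marker sums were higher in Snf2lΔ, as was Igf2, while H19, Cdkn1c, Slc22a18 and Phlda2 were lower, and the part of such cells in the values was not tested.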

How the data were processed

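Stranded or unstranded poly(A) libraries (labels and methods name different TruSeq kits) were aligned by the authors to mm10 with QuasR and HISAT2, and reads were counted over UCSC Known Genes. The deposited counts are whole numbers per Entrez gene, not normalized, with a gene length in bp. Of 24594 genes, 24570 were matched to RefSeq GRCm38.p6 by identifier (99.9% of counts). The fit used edgeR 4.0.16 under R 4.3.3 (filterByExpr with a minimum count of 10, TMM factors, glmQLFit and glmQLFTest in legacy form, genotype as the only term, two-sided), and p-values were adjusted by Benjamini-Hochberg over 13840 genes. TMM is an assumption, as no normalization is named in the methods. SE came from the fold change and its F statistic, CPM from TMM-scaled library sizes, and SD is over the 2 libraries of a genotype. Intervals and floors cover counting error only, since PCR reads without molecular identifiers are not independent molecules.

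The cluster genes, gene lists and tests were chosen with earlier results of these data known. Named were the cluster genes and the neighbours within 1 Mb called at an adjusted p-value under 0.05 or described as imprinted. From each list other than marker lists, the 3 called genes with the largest change were named. Others (Smarca5, Igf2os, Zfp57, Pik3r2, Igf2bp2, called markers and imprinted genes beyond 3) were added after their values were seen. For H19 and Igf2 the 3 tested genes nearest in level profile were also named. The fit was tested on simulated counts. The deviations of same-numbered libraries correlated at 0.196, and 14 alternatives, DESeq2 1.42.0 among them, were run. Library pairs of a genotype differed beyond sampling noise (chi-square per degree of freedom 5.48 in WT and 7.83 in Snf2lΔ), so no library was a copy of another.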

Additional observations from a re-analysis of the deposited data

How the results depend on the processing

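Over 14 alternatives, the log2 fold changes of the 9 tested cluster genes had ranges of -3.55 to -3.37 for H19, 1.71 to 1.94 for Igf2, -1.86 to -1.53 for Cdkn1c, -1.69 to -1.42 for Slc22a18, -1.85 to -1.52 for Phlda2, -0.34 to -0.13 for Tssc4, -0.12 to -0.03 for Nap1l4, 0.00 to 0.13 for Cd81 and -0.12 to 1.41 for Kcnq1ot1, whose sign changed only without WT library 2. Cluster genes meeting the DEG definition numbered 4 or 5, and those with an adjusted p-value under 0.05 numbered 4 (DESeq2, without Slc22a18) to 6 (with Tssc4 under the replicate block, and with Kcnq1ot1 without WT library 1).

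Counts over other genes moved more. With DESeq2 instead of edgeR, DEGs went from 137 to 88, genes with an adjusted p-value under 0.05 from 1274 to 785 (805 genes had no adjusted p), called neighbours from 2 to 1, IGF signalling genes from 5 to 3 and family relatives from 2 to 0. Library numbers were shared between genotypes without a stated batch or day, and with 2 pairs the correlation of 0.196 does not establish a pairing. With the replicate block, these counts were 223, 3471, 6, 11 and 5, with 11 regulators instead of 4 and 18 imprinted genes of other domains instead of 9. A filter of at least 10 counts in every library left 1 neighbour, and a filter of at least 1 count left 1 family relative. Leaving out each library in turn gave 139 to 187 DEGs, 829 to 1932 genes with an adjusted p-value under 0.05 (829 without WT library 1, 1932 without Snf2lΔ library 1), 0 to 2 neighbours, 3 to 6 IGF signalling genes, 3 to 7 regulators, 0 to 4 family relatives and 7 to 11 imprinted genes of other domains. A lone library was assumed to vary like the other genotype. The causes were not tested.

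With 2 libraries of 1 clone per genotype, effects of the deletion, the clone and its culture cannot be told apart. Slc22a18 and Kcnq1 were limited by depth, and Kcnq1ot1 also by the difference between the WT libraries.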

Other observations

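Imprinted genes of other chromosomal domains were compared in the same way, and 7 were higher and 2 lower of 36 tested (25%, against 9.21% of all tested genes), with a median log2 fold change of 0.02 (quasi-likelihood test of edgeR, Benjamini-Hochberg adjusted). The split moved when 1 library was left out: 3 were higher and 4 lower without WT library 2, 5 and 3 without Snf2lΔ library 2, 5 and 2 without WT library 1, and 7 and 4 without Snf2lΔ library 1. DESeq2 called 4 higher and 2 lower. The list held 43 genes, 42 of them in the table. Mest, a paternally expressed gene of chromosome 6, had 2532 and 2704 counts in WT and 173 and 192 in Snf2lΔ, a log2 fold change of -3.95 (SE 0.113, adjusted p = 2.57e-11), and it was the only DEG of the list. Copg2 was also lower, at -0.71 (SE 0.0903, adjusted p = 2.06e-04). Its annotated span starts at position 30747554 of chromosome 6, before the end of Mest at 30748466. Reads from the stretch that both spans cover may be part of either count, so the lower Copg2 counts are not a separate observation with certainty. Peg10 of the same chromosome was higher, at 0.38 (SE 0.107, adjusted p = 0.0391).

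In the Dlk1-Dio3 domain of chromosome 12, singled out after its values were seen, 5 of 6 tested genes were higher in Snf2lΔ at an adjusted p-value under 0.05. Over all 13840 tested genes, 553 were higher at this threshold. Dlk1, at a log2 fold change of 0.49, was not called (adjusted p = 0.097). Without WT library 2 only Meg3 and Mirg were called, and with DESeq2 Meg3, Mirg and Rian were. Dio3, which codes for the deiodinase that inactivates thyroid hormone, had 15 and 13 counts in WT and 36 and 37 in Snf2lΔ (log2 fold change 1.27, SE 0.305, adjusted p = 0.0154). The maternally expressed non-coding RNAs Meg3, Rian and Mirg had log2 fold changes of 0.50, 0.45 and 0.73, with adjusted p-values of 0.00448, 0.00509 and 0.00245. Rtl1, which is expressed from the other parental copy and overlaps a maternal antisense RNA, had 0.84 (SE 0.229, adjusted p = 0.0317). The annotated span of Rtl1, 109564900 to 109604418 of chromosome 12, overlaps those of Meg3, which ends at 109571729, and Rian, which starts at 109603945. Reads from the shared stretches may be part of either count, so the higher Rtl1 counts are not a separate observation with certainty. Peg12, on chromosome 7 outside the cluster, had 26 and 36 counts in WT and 50 and 86 in Snf2lΔ (log2 fold change 1.03, SE 0.282, adjusted p = 0.0322).

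Genes with the profile nearest to that of H19 over the 4 libraries, by Euclidean distance in log2 CPM relative to the WT mean, were Ddx3y of chromosome Y (distance 0.262), Zfy1 of chromosome Y (0.448) and Usp26 of chromosome X (0.731). A prior count of 2 was added, which sets the distance of a gene with 0 counts such as Zfy1, so its place in this order is not a measurement. Ddx3y had 381 and 416 counts in WT and 35 and 31 in Snf2lΔ, and Zfy1 had 14 and 16 in WT and 0 and 0 in Snf2lΔ. Usp26 had 174 and 174 counts in WT and 28 and 17 in Snf2lΔ. The profile of Igf2 was nearest to those of Lef1 (0.208), Nme5 (0.252) and Ndufa4l2 (0.297), of which Lef1 had 65 and 82 counts in WT and 323 and 294 in Snf2lΔ. Nme5 had 2 and 2 counts in WT and 12 and 11 in Snf2lΔ, and Ndufa4l2 had 5 and 8 in WT and 31 and 31 in Snf2lΔ. The prior count also bears on distances at such low counts, so the places of Nme5 and Ndufa4l2 are uncertain. These are descriptions over 4 libraries.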
